A study of Mus musculus with 8 samples.

Results

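Glutamine synthesis and the breakdown of branched-chain amino acids were described in quadriceps muscle through 10 genes, chosen by symbol from the 53819 rows of the deposited table: Glul, Bcat2, Bckdha, Bckdhb, Dbt, Bckdk, Ppm1k, Got1, Got2 and Gpt2. All 10 were found, and all 10 passed the filter on low counts. The muscle came from wild type C57BL/6J mice, 8 weeks old when the study began. In the tumor group (4 mice), 500000 cells of B0092, a head and neck squamous cell carcinoma line, were placed subcutaneously in the nape. The control group (4 mice) was given the PBS vehicle in the same way. Muscle was collected on day 36, a time set by a loss of about 10% of starting weight, and 1 polyadenylated RNA library was made per mouse. The model rests on a single carcinoma line grown away from its site of origin, and the sex of the mice is not given in the sources used here.

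Muscle is the main site where leucine, isoleucine and valine begin to be broken down. BCAT2 moves their amino group to 2-oxoglutarate, which gives glutamate and a branched-chain keto acid. The keto acid is then decarboxylated, irreversibly, by the mitochondrial BCKDH complex, which BCKDK switches off by phosphorylation and PPM1K switches back on. The nitrogen leaves muscle mostly as glutamine, made from glutamate and ammonia by glutamine synthetase (GLUL), or as alanine, made by alanine transaminases such as GPT2. The aspartate transaminases GOT1 (cytosol) and GOT2 (mitochondria) exchange nitrogen between glutamate and aspartate and carry reducing equivalents in the malate-aspartate shuttle.

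Depth ran from 28436205 to 36139462 counts per library, and 14070 genes passed the filter. The edgeR quasi-likelihood test called 2781 of them (19.8%), with a Benjamini-Hochberg adjusted p below 0.05 over all genes, 1552 (11.0%) higher and 1229 (8.73%) lower in tumor-bearing mice. Among called genes 55.8% were higher, and with upper-quartile scaling 43.0%. Control library 4 and tumor library 2 stood apart in their myosin transcripts. The share of Myh4 (myosin of the fastest fibres) among counts of adult myosin heavy chains was 64.6% in the former, against 88.5% to 98.0% in controls 1 to 3, and 80.3% in the latter, against 95.2% to 98.9% in tumor libraries 1, 3 and 4. Tumor library 4 stood apart in composition: its 50 most abundant genes held 37.4% of counts, against 45.7% to 51.5% in the other 7 libraries, and its TMM factor was 1.22, against 0.896 to 1.02. The results below are therefore also given without these libraries where that changes a call.

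Of the 10 genes, 1 rose (Glul) and 1 fell (Bckdk), and 8 did not pass the test. The called share of 2 in 10 lies at the 19.8% called over all genes. The median log2 fold change of the 10 genes was -0.17, against 0.0029 over all tested genes, and 8 of the 10 values were below 0. The lowest values, those of Got1 (-1.17) and Ppm1k (-0.96), missed the threshold.

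To show the regulatory sequence of genes on which these results turn, the 250 bases before the RefSeq transcription start (build GRCm38.p6) are printed for Glul and Bckdk, the 2 called genes, and for Got1, the gene with the lowest fold change of the 10. Bases just after the RefSeq start were found in a GENCODE transcript of the gene for Bckdk and Got1, but not for Glul. Whether the RefSeq and GENCODE starts agree was not tested. Each window is given 5′ to 3′ on the strand of the gene. Glul is on the plus strand at chr1:153899679-153899928, Bckdk on the plus strand at chr7:127903823-127904072 and Got1 on the minus strand at chr19:43524606-43524855. Capitals mark matches, on either strand, to 5 motifs: GTAAACA (FOXO core), AGAACA (glucocorticoid receptor half-site), AAGGTCA (core of the estrogen-related receptor element), CACGTG (MYC E-box) and GGGCGG (GC box, bound by SP and KLF family factors).
Glul: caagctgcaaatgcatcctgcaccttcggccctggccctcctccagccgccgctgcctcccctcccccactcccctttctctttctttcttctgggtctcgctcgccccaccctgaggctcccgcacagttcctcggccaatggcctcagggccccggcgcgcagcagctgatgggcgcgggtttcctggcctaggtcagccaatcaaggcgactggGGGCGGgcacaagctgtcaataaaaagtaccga
Bckdk: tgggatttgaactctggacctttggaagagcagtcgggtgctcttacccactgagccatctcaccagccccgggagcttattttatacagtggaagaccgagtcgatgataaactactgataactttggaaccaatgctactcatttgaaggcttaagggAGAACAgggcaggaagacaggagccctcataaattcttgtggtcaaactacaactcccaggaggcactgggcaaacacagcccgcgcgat
Got1: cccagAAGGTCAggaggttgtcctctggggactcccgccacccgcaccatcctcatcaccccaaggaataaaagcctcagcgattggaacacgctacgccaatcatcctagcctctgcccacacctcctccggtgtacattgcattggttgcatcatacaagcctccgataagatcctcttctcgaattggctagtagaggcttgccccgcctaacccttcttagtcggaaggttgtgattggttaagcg
Each window held 1 match, and no matches overlapped. The Glul window held the GC box, a motif found in 32.7% of the 32851 RefSeq promoter windows of the same length. The Bckdk window held the half-site AGAACA (16.1% of windows), and the Got1 window held AAGGTCA (4.08% of windows). The FOXO core (3.17% of windows) and the MYC E-box (6.02%) were not in these 3 windows. RefSeq promoter entries were found for 9 of the 10 genes. A match is a description of the letters and does not show that a factor binds there.

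Glul encodes glutamine synthetase, the enzyme that fixes ammonia onto glutamate. In controls it lay at 176, 225, 213 and 245 counts per 1000000 (CPM, scaled by TMM factors) in libraries 1 to 4, and in tumor-bearing mice at 1016, 1241, 869 and 415 CPM. All 4 tumor values lay above all 4 control values, as they did in 13.5% of all tested genes. Tumor library 4 had the lowest tumor value and tumor library 2 the highest. The mean went from 215 ± 29.1 to 885 ± 349 CPM (SD, n = 4), a 4.13-fold rise (log2 fold change 2.04 ± 0.30 SE, adjusted p = 0.00399, edgeR). Only 0.483% of tested genes had a higher log2 fold change. The call held in each of 18 alternatives, with log2 fold changes from 1.81 to 2.27, the highest without tumor library 4. The deposited Glul estimates were not whole numbers, and whether reads were shared with other loci was not tested.

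**Figure D1:**
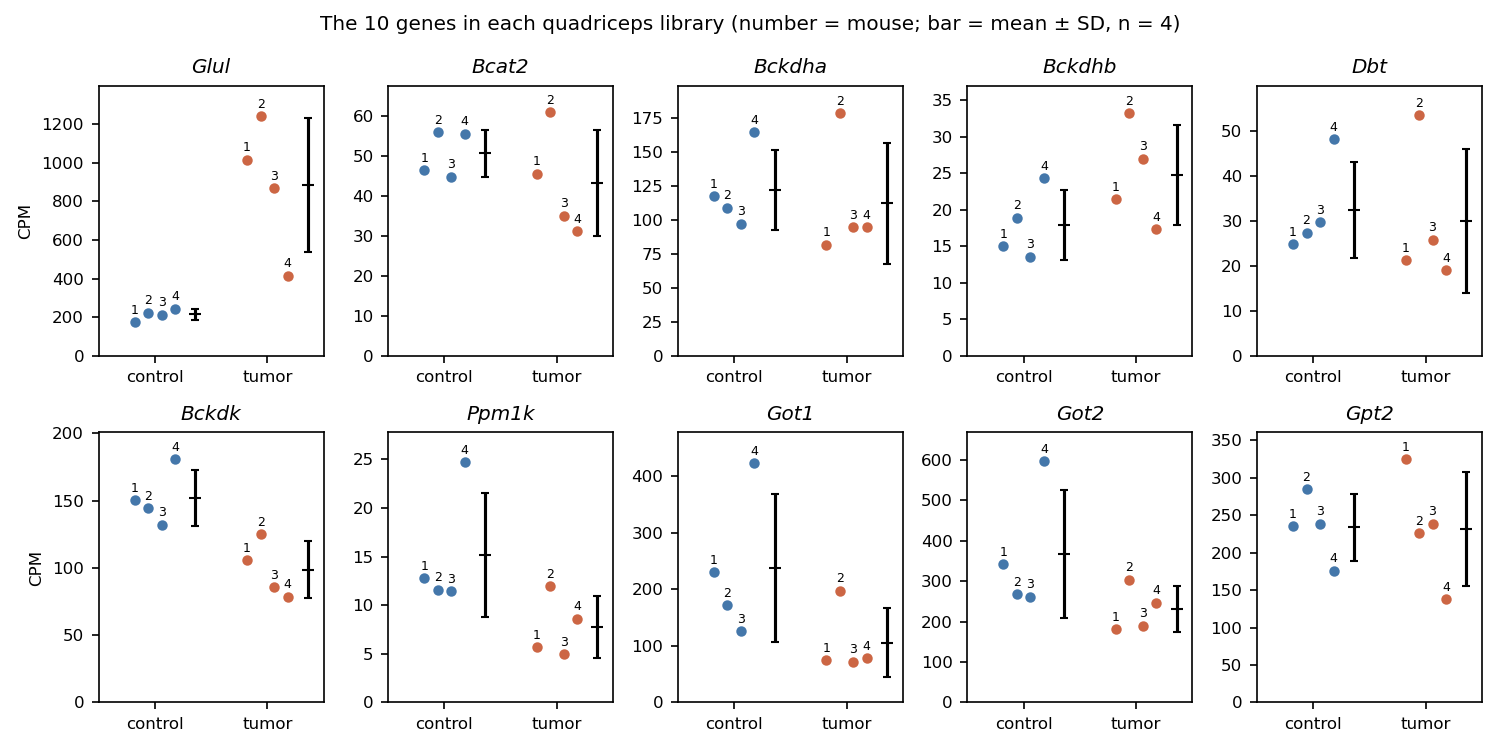
Counts per 1000000 (y axis, from 0 in each panel) of the 10 genes in 4 control and 4 tumor libraries, with the mouse number beside each point and bars for the mean ± SD. Glul and Bckdk are the genes whose groups did not overlap, and control library 4 and tumor library 2 had the highest value of their group for 8 and 9 genes.

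Glud1, the glutamate dehydrogenase that releases ammonia from glutamate, lay at 95.1 ± 18.3 CPM in controls and 90.4 ± 11.7 CPM in tumor-bearing mice (SD, n = 4). It did not pass the test (log2 fold change -0.07 ± 0.16, adjusted p = 0.776, edgeR).

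Bcat2 encodes the mitochondrial transaminase that takes the first step of branched-chain amino acid breakdown. It lay at 46.5, 56.0, 44.9 and 55.7 CPM in controls and at 45.7, 61.0, 35.1 and 31.2 CPM in tumor libraries. The groups overlapped: tumor library 2 was above every control, and tumor libraries 3 and 4 were below every control. The log2 fold change was -0.23 ± 0.20 (adjusted p = 0.454, edgeR). Its cytosolic counterpart Bcat1 was near the detection limit, at 0.27 ± 0.04 CPM in controls and 0.20 ± 0.14 CPM in tumor-bearing mice, and was not tested.

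The BCKDH complex is built from the E1 subunits encoded by Bckdha and Bckdhb, the E2 core encoded by Dbt and an E3 subunit, Dld, that it shares with other dehydrogenase complexes. None of these 4 genes passed the test (edgeR), and Dld alone had an unadjusted p under 0.05. Bckdha lay at 117, 109, 97.3 and 165 CPM in controls and at 81.8, 178, 94.9 and 94.5 CPM in tumor libraries. Its tumor values were below every control in libraries 1, 3 and 4, and above every control in library 2. The log2 fold change was -0.12 ± 0.26 (adjusted p = 0.783). Without tumor library 2 it was -0.47, still without a call (adjusted p = 0.114).

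Dbt was also highest in tumor library 2, with 24.8, 27.4, 29.7 and 48.2 CPM in controls and 21.2, 53.6, 25.9 and 19.1 CPM in tumor libraries. Tumor libraries 1 and 4 lay below every control, and tumor library 3 lay within the control range. The log2 fold change of Dbt was -0.12 ± 0.34 (adjusted p = 0.834, edgeR), and it was -0.59 without tumor library 2 (adjusted p = 0.108). Bckdhb lay at 15.0, 18.9, 13.6 and 24.3 CPM in controls and at 21.5, 33.2, 27.0 and 17.3 CPM in tumor libraries. Its log2 fold change was 0.46 ± 0.24 (adjusted p = 0.193), the only positive value among the genes of the complex. For Dld it was -0.46 ± 0.20 (adjusted p = 0.137), and Dld was called lower once tumor library 2 was left out (adjusted p = 0.0488) and without both that library and control library 4 (adjusted p = 0.0381). DESeq2 and limma-voom likewise called none of Bckdha, Bckdhb and Dbt.

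The balance between the 2 E1 subunit genes was 1 of 4 ratios compared, and the only one whose groups did not overlap. Single genes did not overlap in 25.0% of cases. The log2 ratio of Bckdha to Bckdhb counts within a library does not depend on scaling. It was 2.97, 2.53, 2.84 and 2.76 in controls and 1.93, 2.43, 1.81 and 2.45 in tumor libraries. All 4 tumor ratios lay below all 4 control ratios. The mean went from 2.77 ± 0.18 to 2.15 ± 0.33 (SD, n = 4), a difference of -0.62 that ranged from -0.72 to -0.51 when single libraries were left out. Tumor library 2 did not stand apart in this ratio. In contrast, the log2 ratio of Bcat2 to Bckdha overlapped between the groups, at -1.24 ± 0.26 in controls and -1.36 ± 0.35 in tumor-bearing mice.

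**Figure D2:**
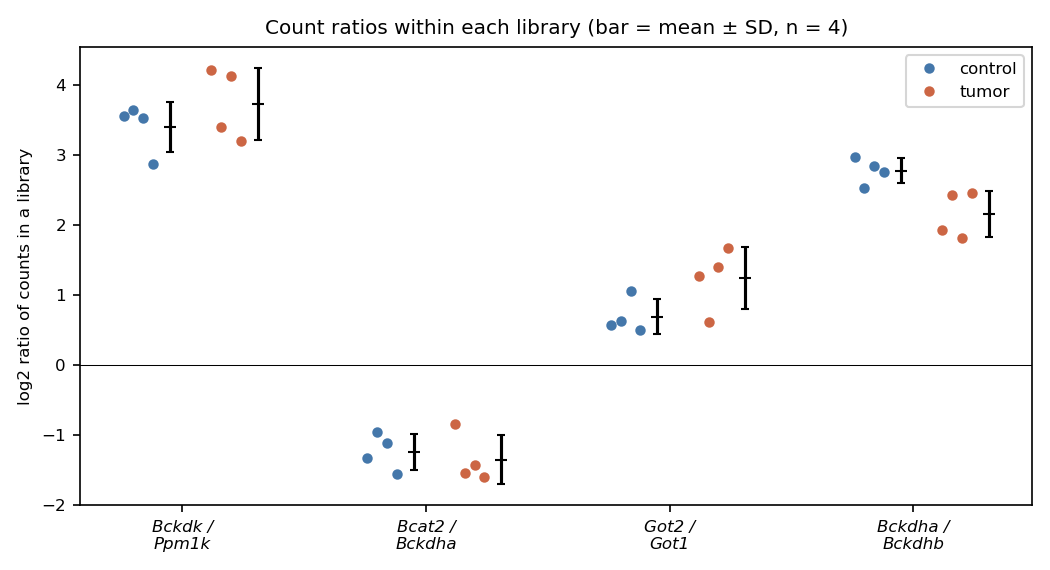
Log2 ratios of counts within each library (y axis) for 4 pairs of genes, with 4 control and 4 tumor points and bars for the mean ± SD. The groups separate for Bckdha to Bckdhb (tumor lower) and overlap for the other 3 pairs.

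Bckdk encodes the kinase that inactivates the complex. It lay at 150, 145, 132 and 181 CPM in controls and at 106, 125, 85.8 and 78.7 CPM in tumor libraries. All 4 tumor values were below all 4 control values, as in 11.5% of all tested genes, with tumor library 2 (125 CPM) closest to control library 3 (132 CPM). Bckdk fell 1.54-fold, from 152 ± 20.6 to 98.8 ± 20.9 CPM (SD, n = 4; log2 fold change -0.62 ± 0.17, adjusted p = 0.0319, edgeR). Bckdk no longer passed without control library 1 (adjusted p = 0.0836), control library 2 (0.0698) or control library 4 (0.069). The same held without tumor library 3 (0.102) or tumor library 4 (0.0541). The log2 fold change in these fits ran from -0.64 to -0.53. In turn, they called 7.75%, 9.58%, 15.8%, 8.3% and 18.5% of all tested genes.

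Ppm1k encodes the phosphatase that reactivates the complex, the opposing partner of BCKDK. It was the least abundant of the 10 genes, with 12.8, 11.6, 11.5 and 24.7 CPM in controls and 5.70, 11.9, 4.95 and 8.61 CPM in tumor libraries. Tumor library 2 lay within the control range, and the other 3 tumor libraries lay below it. The log2 fold change was -0.96 ± 0.33 and missed the threshold (adjusted p = 0.0712, edgeR). It passed without tumor library 2 (-1.27, adjusted p = 0.0287), without control library 4 and tumor library 2 together (-0.90, adjusted p = 0.023) and by DESeq2 (adjusted p = 0.0267). The log2 ratio of Bckdk to Ppm1k overlapped between the groups, with values from 2.87 to 3.64 in controls and from 3.19 to 4.21 in tumor-bearing mice. Kinase and phosphatase transcripts were therefore both lower in tumor libraries 1, 3 and 4 than in any control, and their ratio did not separate the groups.

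Got1 encodes the cytosolic aspartate transaminase. It lay at 230, 173, 126 and 423 CPM in controls and at 75.1, 198, 72.4 and 77.7 CPM in tumor libraries. The 3 tumor libraries other than library 2 lay close together and below every control, while library 2 lay above controls 2 and 3. The log2 fold change was -1.17 ± 0.44 and missed the threshold (adjusted p = 0.086, edgeR). It passed without tumor library 2 (-1.70, adjusted p = 0.0177), without tumor library 2 and control library 4 (-1.24, adjusted p = 0.00787), by DESeq2 (adjusted p = 0.0204) and with the myosin ratio as a covariate (-0.71, adjusted p = 0.0179).

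Got2 encodes the mitochondrial aspartate transaminase. It lay at 343, 267, 261 and 597 CPM in controls and at 181, 303, 190 and 246 CPM in tumor libraries. Only tumor library 2 overlapped the controls. Its log2 fold change was -0.67 ± 0.29 (adjusted p = 0.125, edgeR), and no alternative called it (adjusted p from 0.0698 to 0.3). The processed pseudogene Got2-ps1 carried counts equal to 0.753% to 1.25% of those of Got2, and reads shared between the copies could shift its level. Gpt2, the mitochondrial alanine transaminase, lay at 236, 285, 239 and 176 CPM in controls and at 324, 226, 239 and 138 CPM in tumor libraries. The groups overlapped over the whole control range, and the log2 fold change was -0.01 ± 0.25 (adjusted p = 0.978).

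**Figure D3:**
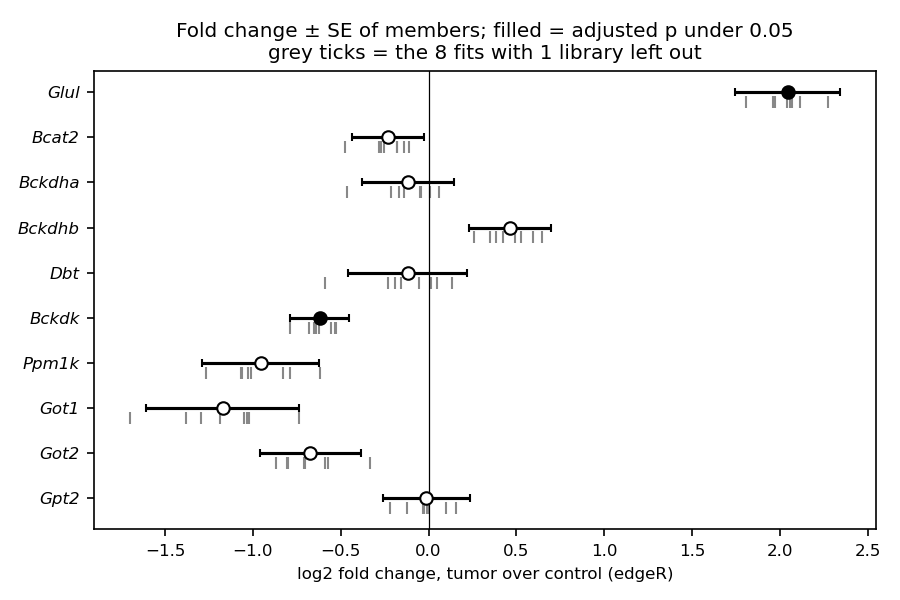
Log2 fold change (x axis, tumor over control) of the 10 genes with its SE, filled where the adjusted p was under 0.05, and grey ticks for the 8 fits with 1 library left out. Glul stays between 1.81 and 2.27, and the lowest ticks of Got1 (-1.70), Ppm1k (-1.27), Dbt (-0.59) and Bckdha (-0.47) are the fits without tumor library 2.

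Levels per length (CPM per kilobase of the transcript with the longest coding sequence, GENCODE M21) give the order of the 10 genes in muscle. In controls the mean was highest for Got2 (145 ± 62.4), followed by Got1 (116 ± 63.4), Glul (76.8 ± 10.4), Bckdha (64.3 ± 15.5), Gpt2 (64.2 ± 12.3), Bckdk (44.6 ± 6.06), Bcat2 (28.6 ± 3.34), Bckdhb (12.2 ± 3.25), Dbt (9.85 ± 3.23) and Ppm1k (2.72 ± 1.15). From Got2 down to Gpt2, and for Bckdhb and Dbt, neighbouring genes in this order differed by less than the larger of their SDs. In tumor-bearing mice the per-length level of Glul (317 ± 125) stood above that of Got2 (91.0 ± 22.4). It was followed by Gpt2 (63.7 ± 21.0), Bckdha (59.2 ± 23.4) and Got1 (51.4 ± 29.9), which lay within their spread of each other.

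The 10 genes shared a pattern across libraries that the group labels do not give. Control library 4 had the highest control value for 8 of the 10 genes, against 35% of all tested genes, and tumor library 2 had the highest tumor value for 9 of the 10, against 30.8% of all tested genes. Gpt2 went the other way, with its lowest control value in control library 4. Tumor library 4 had the lowest tumor value for 6 genes (28.9% of all tested genes) and control library 3 the lowest control value for 7 (24% of all tested genes). Control library 4 and tumor library 2 had the lowest shares of Myh4 in their groups. With a myosin covariate (log2 of Myh4 over Myh1, Myh2 and Myh7 together), Glul rose and 3 of the 10 genes fell: Bckdk, Ppm1k (log2 fold change -0.64, adjusted p = 0.0237) and Got1. The same 3 genes fell without both libraries. With Glul, 4 of the 10 genes were called in each of these fits. Over all tested genes 21.5% were called with the covariate and 20.7% without both libraries.

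**Figure D4:**
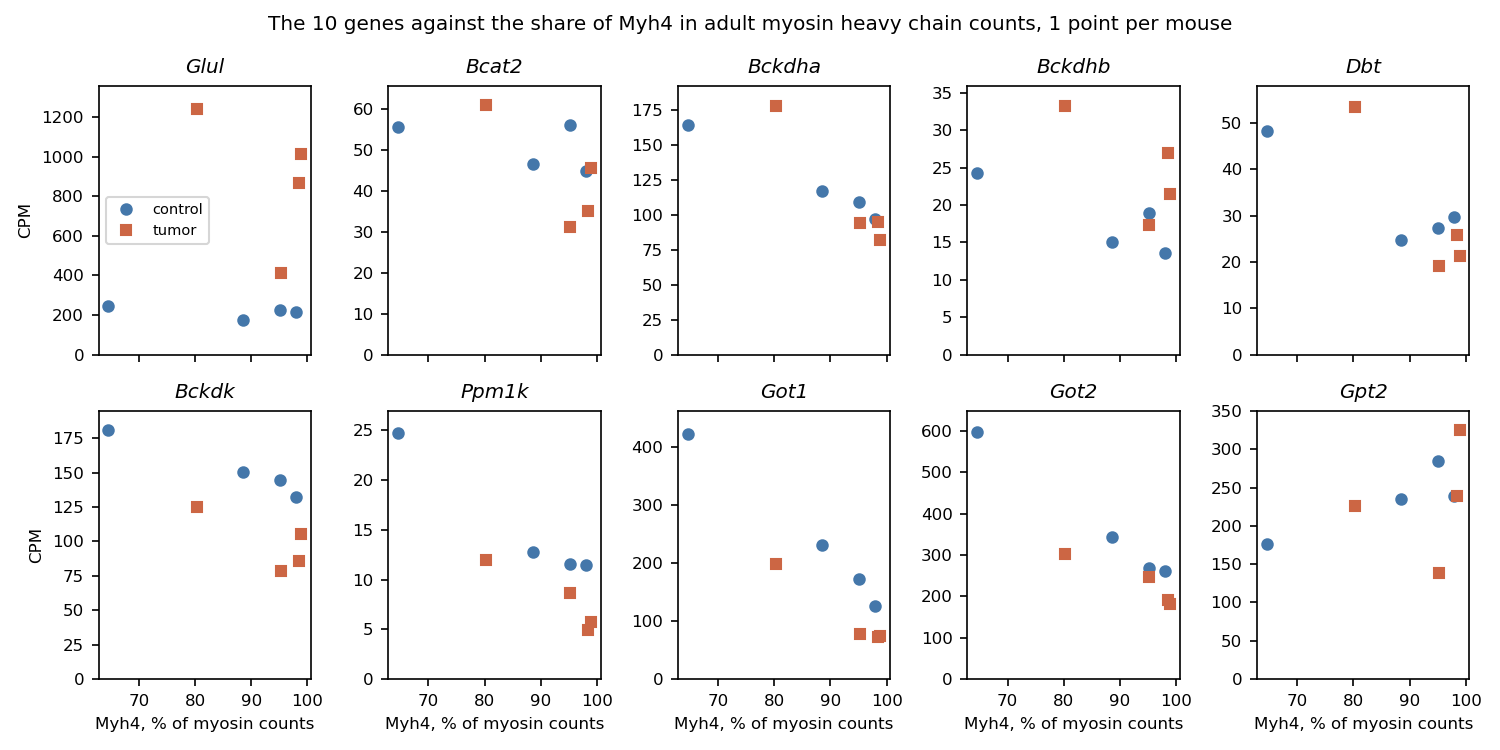
Counts per 1000000 (y axis, from 0) of each of the 10 genes against the share of Myh4 in adult myosin heavy chain counts (x axis, percent), 1 point per mouse. In Got1, Got2, Ppm1k, Dbt and Bckdha the control at 64.6% and the tumor library at 80.3% sit above the rest of their groups. Glul is higher in each tumor library than in any control. Below 88.5% there is only that 1 control and that 1 tumor library, so the groups cannot be compared at like shares there.

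Branched-chain carbon skeletons are handled downstream by acyl-CoA dehydrogenases, carboxylases and hydratases. The list of 20 genes held these steps and the mitochondrial carrier Slc25a44. It also held Dld, of the BCKDH complex itself, and cytosolic Bcat1, which was not tested. Of the 19 genes tested, 1 rose and 1 fell (10.5% called, below the 19.8% over all genes). Log2 fold changes in this list ran from -0.68 to 0.54, with a median of -0.24. Acad8, the isobutyryl-CoA dehydrogenase of valine breakdown, fell 1.40-fold from 23.8 ± 2.46 to 17.0 ± 1.66 CPM (SD, n = 4), with an adjusted p of 0.0242 (edgeR). Acad8 did not pass without control library 1 (adjusted p = 0.0826), control library 2 (0.0644), control library 4 (0.0509) or tumor library 3 (0.0795). Slc25a44, the mitochondrial carrier for branched-chain amino acids, rose 1.36-fold, from 34.3 ± 2.84 to 46.5 ± 7.60 CPM, at the threshold (adjusted p = 0.0482). It stayed called, among fits without 1 library, only without tumor library 4, and the others gave an adjusted p from 0.0504 to 0.14. Without tumor library 2 the list held 5 lower genes in place of 1, Dld among them. Without control library 1, 2 or 4 or tumor library 3 it held 0. Those fits called 7.75%, 9.58%, 15.8% and 8.3% of all tested genes, in either direction.

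Of 26 other genes of glutamine and glutamate metabolism, 25 were tested, 1 rose and 2 fell (12% called, below the 19.8% over all genes), and the list's median log2 fold change was -0.07. Aldh4a1, which oxidises the proline breakdown product to glutamate, fell 2.12-fold from 104 ± 9.17 to 49.2 ± 10.5 CPM (adjusted p = 0.00393, edgeR). Its fall was called in every one of 18 alternatives. Kyat1, a glutamine transaminase, fell 1.78-fold (adjusted p = 0.0149), but did not pass without control library 1 (0.0549) or tumor library 3 (0.0517). Gclc, the catalytic subunit of the enzyme that joins glutamate and cysteine for glutathione, rose 1.41-fold (adjusted p = 0.032). It kept its call, among fits without 1 library, only without control library 3 or tumor library 4. The list's lower count was 1 without control library 1 or tumor library 3 and 5 without tumor library 2. Its higher count was 2 without control library 3 or tumor library 4 and 0 without control library 1, 2 or 4 or tumor library 2 or 3.

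The partners of the aspartate transaminases in the malate-aspartate shuttle were listed together with the glycerol phosphate shuttle enzymes Gpd1 and Gpd2. All 7 genes listed had a log2 fold change below 0 (median -1.02, range -1.58 to -0.33), and the 4 that fell (57.1%, against 8.73% of all tested genes) were Mdh1, Slc25a11, Mdh2 and, named after its value was seen, Slc25a12. The low end of the range is Slc25a13, which lay near the detection limit (0.671 ± 0.758 CPM in controls, 0.220 ± 0.094 CPM in tumor-bearing mice). Mdh1, the cytosolic malate dehydrogenase, lay at 295, 222, 193 and 469 CPM in controls and at 99.0, 162, 85.5 and 101 CPM in tumor libraries, without overlap. It fell 2.64-fold (log2 fold change -1.40 ± 0.30, adjusted p = 0.0134, edgeR). Mdh2, its mitochondrial counterpart, fell 2.03-fold (adjusted p = 0.0144), and the 2-oxoglutarate carrier gene Slc25a11 fell 1.74-fold (adjusted p = 0.0134). Slc25a12, an aspartate-glutamate carrier gene, fell 1.60-fold (adjusted p = 0.032). Without tumor library 3 none of the 4 was called in edgeR, and 8.3% of all tested genes were called in either direction. The adjusted p in that fit was 0.051 for Mdh1, 0.0527 for Slc25a11, 0.0552 for Mdh2 and 0.102 for Slc25a12. Slc25a12 also lost its call without control library 1 (0.0824), 2 (0.0649) or 4 (0.0691) or tumor library 1 (0.0605) or 4 (0.0601).

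**Figure D5:**
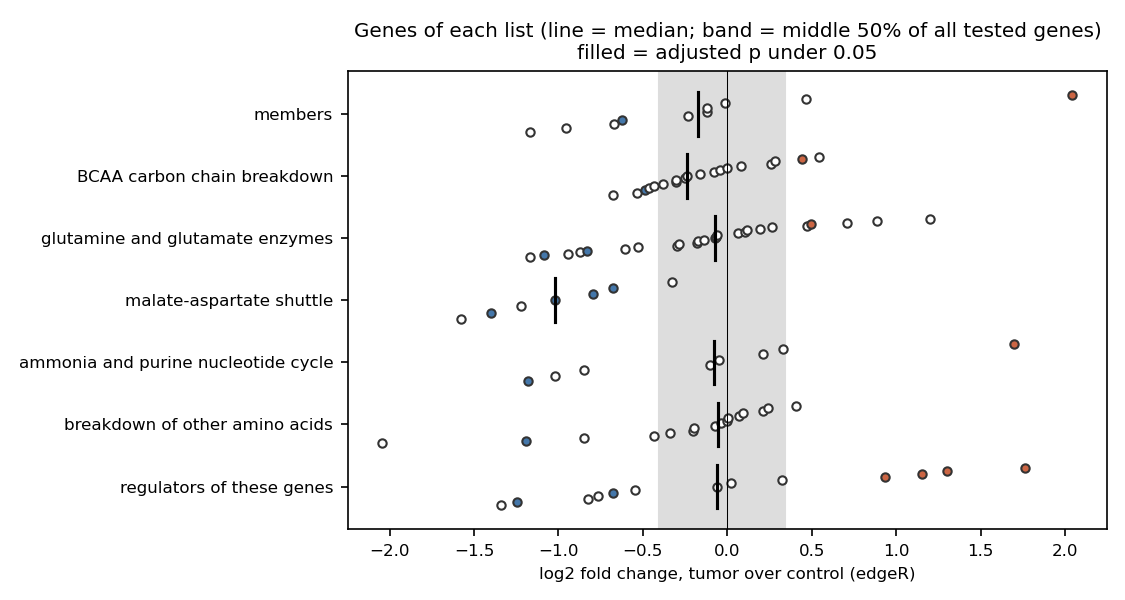
Log2 fold change (x axis, tumor over control) of each tested gene of the 10 genes and of 6 companion lists, filled where the adjusted p was under 0.05, with a line at each median and a grey band over the middle 50% of all tested genes (-0.40 to 0.34). The shuttle list lies below 0 throughout, while the other medians lie within the band.

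Regulators known to act on these genes in muscle moved in both directions. Of 13 listed, 4 rose and 2 fell (46.2% called, against 19.8% of all genes). Earlier results of these data were known when this list was chosen. Klf15, a glucocorticoid-induced factor that activates amino acid catabolic genes including Bcat2, lay at 22.6, 34.6, 32.4 and 42.6 CPM in controls and at 74.9, 107, 75.9 and 36.1 CPM in tumor libraries. Tumor library 4 overlapped the controls. It had the lowest tumor value of Klf15 and of Glul, as it did for 28.9% of all tested genes. Klf15 rose 2.23-fold (log2 fold change 1.15 ± 0.30, adjusted p = 0.0282, edgeR). It did not pass without control library 1 (adjusted p = 0.0864), 2 (0.0685) or 3 (0.0656) or tumor library 2 (0.0569) or 3 (0.0757). Bcat2 itself did not pass, as given above.

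Among the other regulators, Myc rose 3.39-fold from 2.87 ± 0.99 to 9.77 ± 2.79 CPM (adjusted p = 0.00508, edgeR). Esrra, a nuclear receptor of mitochondrial genes, fell 2.37-fold from 96.2 ± 21.9 to 40.6 ± 5.51 CPM (adjusted p = 0.00358), and Mlxipl, a glucose-responsive factor, fell 1.60-fold (adjusted p = 0.0127). These 3 calls held in all 18 alternatives. The FOXO factors, named after their values were seen, were Foxo3 (1.91-fold higher, adjusted p = 0.0305) and Foxo1 (2.46-fold higher, adjusted p = 0.0495). Both overlapped between the groups through tumor library 4, at 31.3 CPM for Foxo3 and 17.5 CPM for Foxo1. Foxo3 lost its call without control library 1 (0.0955), 2 (0.082) or 3 (0.0576) or tumor library 2 (0.0531) or 3 (0.0784). Foxo1 lost its call in 12 of 18 alternatives. It kept the call, among fits without 1 library, only without tumor library 1 or 4, and its log2 fold change went from 1.30 to 0.66 without tumor library 2. Without control library 1, 2 or 3 or tumor library 2 or 3, 1 regulator was called higher. Without tumor library 2, 5 were called lower.

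By likeness of pattern (Pearson's r of log2 CPM over the 8 libraries, 7332 genes compared), the genes closest to Glul were Ddit4 (r = 0.989), Cwc22 (0.987), Pnpla7 (0.987), Ddx59 (0.985) and Akap8l (0.985). All 5 rose in tumor-bearing mice, with log2 fold changes from 0.63 to 3.70. Those closest to Bcat2 were Notch1 (r = 0.978), Mto1 (0.968), Syne2 (0.967), Shank3 (0.964) and Dcun1d3 (0.956), and these 5 genes did not pass the test, with log2 fold changes from -0.40 to -0.12. The points share libraries, depth and the group difference, so these values are a description.

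The summed levels of endothelial, fibro-adipogenic and squamous epithelial markers did not overlap between the groups, and those of the other lists did. Single genes did not overlap in 25.0% of cases. In whole muscle fewer cells of a type and less RNA per cell cannot be told apart. Over all tested genes 11.0% rose and 8.73% fell. Of 10 endothelial markers 5 fell, and their summed level was 189 to 275 CPM in controls and 102 to 164 CPM in tumor libraries. Of 10 fibro-adipogenic markers 3 fell, Col3a1, Pi16 and Fbn1 (sums of 503 to 701 against 212 to 459 CPM). Much of this sum lay in collagen genes: the mean went from 192 to 46.5 CPM for Col3a1 and from 96.1 to 31.8 CPM for Col1a1. Pdgfra (log2 fold change 0.13) and Dcn (0.04) were the 2 genes of the list above 0, and neither was called. Of 10 macrophage markers 1 rose, Cd163 (67.4 to 118 against 47.8 to 174 CPM). Adipocyte markers had summed levels of 609 to 1777 CPM in controls and 418 to 2048 CPM in tumor libraries, highest in tumor library 2, and 0 of 10 were called by edgeR, with 0 at an unadjusted p under 0.05. No defining marker of these 4 lists was at 0 throughout. Of 7 tested blood cell markers 1 rose (S100a8), with sums of 119 to 241 CPM in controls and 50.8 to 283 CPM in tumor libraries, and Schwann cell markers summed to 24.3 to 60.5 CPM and 19.8 to 58.6 CPM. Of 10 squamous epithelial markers 5 had no count in any library (Krt5, Krt14, Krt6a, Krt17 and Dsg3), and 1 of 3 tested rose (Trp63). The sums were 8.53 to 11.6 CPM in controls and 17.8 to 39.4 CPM in tumor libraries. Trp63 held most of this sum, at 8.17 ± 1.43 CPM in controls and 24.6 ± 8.86 CPM in tumor libraries (SD, n = 4). Of 10 muscle fibre markers 1 rose (Des) and 2 fell (Myh7 and Acta1), with sums of 149103 to 189753 CPM in controls and 93837 to 199684 CPM in tumor libraries. Myh7 overlapped between the groups, at 2164 CPM in control library 4 and 119, 16.4 and 1.48 CPM in controls 1 to 3. In tumor libraries it lay at 0.115 to 4.09 CPM. The part of these cells in the results on Glul and Bckdk was not tested.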

How the data were processed

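RNA of quadriceps muscle from 4 control and 4 tumor-bearing mice was measured as 1 library per mouse. Groups and replicate numbers come from the sample titles, and columns were matched by library name. The authors deposited 1 table of estimated counts per gene symbol, and 9.00% of these estimates were fractional. The build GRCm39 and the tools STAR 2.7.9a, Salmon 1.10.1, Trim Galore 0.6.7, cutadapt 3.4 and R 4.2.2 are listed per the submitters' processing notes. Not given in the sources used here were the tools' roles, the annotation, the strand setting and any batch.

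Estimated counts were rounded to whole numbers. Genes were kept by filterByExpr (minimum count 10), which left 14070 genes holding 99.9% of counts, and scaled by TMM. Groups were compared with the edgeR 4.0.16 quasi-likelihood F test (R 4.3.3), group as the only term, two-sided, Benjamini-Hochberg over all tested genes, threshold 0.05. Each SE is |log2 fold change| over the square root of F. CPM means are ± SD over 4 mice. The procedure was tested on simulated counts. No 2 libraries of a group agreed within sampling noise, and each of the 8 counted as 1 replicate. Promoter windows are from RefSeq (GRCm38.p6), and transcript lengths from GENCODE M21, matched by symbol; they are of another build than the counts.

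The 10 genes and the lists were chosen with earlier results of these data known. Named genes are the 10, up to 3 called genes with the smallest p of each companion list, and Glud1, Dld and Klf15; exceptions are stated. 1 further gene is not reported here. Likeness was computed over genes above a mean log2 CPM of 3, without clone names. Pycr3, Adss1 and Adss2 were read under their older symbols Pycrl, Adssl1 and Adss. Alternatives covered scaling, count filter, each library left out, 2 libraries left out, the replicate number as a block, DESeq2 1.42.0, limma-voom (limma 3.58.1) and a myosin covariate.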

Additional observations from a re-analysis of the deposited data

Results flagged for a closer look

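In 3 of the 20 sets of 4 values (10 genes in 2 groups), 1 library lay far from the other 3 by Dixon's criterion, which chance meets in about 1 in 20 sets. Bckdha stood at 178 CPM in tumor library 2, against 81.8 to 94.9 CPM in the other tumor libraries. Got1 stood at 198 CPM in tumor library 2, against 72.4 to 77.7 CPM in the others. Ppm1k stood at 24.7 CPM in control library 4, against 11.5 to 12.8 CPM in the other controls. These are the 2 libraries with the lowest share of Myh4 in their groups (80.3% and 64.6%). The part of fibre composition in these values was not tested.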

How the results depend on the processing

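The rise of Glul was called in all 18 alternatives. The count of lower genes among the 10 was 1, from 0 to 3 with 1 library left out (3 without tumor library 2), 3 without control library 4 and tumor library 2, 3 by DESeq2, 3 with the myosin covariate and 0 with the replicate block. The shares called over all tested genes, in either direction, were 19.4% without tumor library 2, 20.7% without both libraries and 25.9% by DESeq2. They were 21.5% with the covariate and 13.7% with the block. With 1 library left out they ran from 7.75% (control library 1) to 19.8% (tumor library 1). The block also ended the calls of Klf15, Acad8, Slc25a44, Gclc, Slc25a12, Foxo1 and Foxo3 (adjusted p from 0.0506 to 0.11). Over all genes the counts with 1 library left out ran from 630 to 1551 higher and 480 to 1450 lower, and the block gave 1014 higher. Whether the replicate numbers pair the samples is not given in the sources used here, and the correlation of deviations does not settle it. The correlation was over 0.1 in 2 of 4 same-numbered pairs (0.02 to 0.20). It ran from -0.31 to 0.15 in the other pairs. Of 4 tumor libraries, 2 were closest to the control of their own number. The companion list of branched-chain genes had 1 higher gene. It had 0 with DESeq2 size factors, upper-quartile scaling, scaling without the 50 most abundant genes or no count filter. It also had 0 with both libraries left out, the block or limma-voom. It had 2 by DESeq2, and 0 to 1 with 1 library left out. Its 1 lower gene became 5 without both libraries, 0 with the block and 0 to 5 with 1 left out. The glutamine list had 1 higher gene, which became 0 with upper-quartile scaling, without both libraries or with the block, 2 with no or a strict filter, 3 by DESeq2 or with the covariate, and 0 to 2 with 1 left out. Its 2 lower genes became 4 with upper-quartile scaling, no filter, the strict filter, DESeq2, limma-voom or the covariate, 5 without both libraries, and 1 to 5 with 1 left out. Lower shuttle genes (4) ran from 0 to 4 with 1 left out. In the ammonia list 0 to 1 rose and 1 to 2 fell with 1 left out, and 2 fell with the covariate. In the list of other amino acids 1 fell, 2 with no filter, limma-voom or the covariate, 6 without both libraries, and 1 to 3 with 1 left out. Regulators had 4 higher genes (1 to 4 with 1 left out, 1 with the block) and 2 lower (2 to 5 with 1 left out, 6 without both libraries, 4 by DESeq2). Directions of uncalled genes turned with the covariate for Bckdha (0.098), Dbt (0.088) and Glud1 (0.076), and leave-one-out values ran from -0.47 to 0.059 for Bckdha, -0.59 to 0.13 for Dbt, -0.22 to 0.16 for Gpt2 and -0.20 to 0.063 for Glud1. The cause of these shifts was not tested. With 4 mice in each group the spread between animals, not depth, set the SE: the lowest count of any of the 10 genes in a library was 154 (Ppm1k).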

Other observations

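The purine nucleotide cycle, which releases ammonia from adenine nucleotides in working muscle, was listed together with Ak1 and Nt5c1a, which are not enzymes of the cycle. Of these 8 genes 1 rose and 1 fell (25% called, against 19.8% of all tested genes). The gene that fell, Ak1, lies outside the cycle. Ak1, the adenylate kinase of fast fibres, fell 2.27-fold, from 1321 ± 163 to 583 ± 182 CPM (SD, n = 4, adjusted p = 0.00815, edgeR). Its fall was called in all 18 alternatives. Ampd3, an AMP deaminase, lay at 8.67, 8.34, 7.29 and 22.6 CPM in controls and at 13.7, 43.0, 37.7 and 57.9 CPM in tumor libraries, and rose 3.25-fold (adjusted p = 0.0336). The groups overlapped through control library 4 and tumor library 1. Ampd3 did not pass without control library 1 (adjusted p = 0.101), 2 (0.0904) or 3 (0.0831) or tumor library 2 (0.0589), 3 (0.0799) or 4 (0.0713). Ampd1, the main AMP deaminase of muscle, is named after its value was seen, and its log2 fold change of -0.85 ± 0.42 missed the threshold (adjusted p = 0.183, edgeR).

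Of 30 genes for the breakdown of other amino acids and for creatine synthesis, 16 were tested and 1 fell (6.25% called, below the 19.8% over all genes). Gatm, which makes the creatine precursor from arginine and glycine, fell 2.29-fold from 2.78 ± 0.47 to 1.21 ± 0.17 CPM (SD, n = 4, adjusted p = 0.0103, edgeR), with the same call in all 18 alternatives. The list's median log2 fold change was -0.06. Without tumor library 2 the list had 3 lower genes, and without tumor library 4 it had 2.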
